A study of Drosophila melanogaster with 3 samples.

Results

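Binding of the GFP-tagged Drosophila protein CG12391, assayed as a transcription factor, was examined at 10 heat shock and chaperone genes. They were chosen by name as Hsf, Hsp83, Hsc70-3, Hsc70-4, Hsc70-5 and Hsp60A on the constitutive side, and as the heat-inducible small heat shock protein genes Hsp22, Hsp23, Hsp26 and Hsp27. These are 10 of the 13968 protein-coding genes on the chromosome arms. The data came from chromatin immunoprecipitation and sequencing (ChIP-seq) of whole Drosophila melanogaster embryos, with both sexes pooled and ages from 0 to 24 h. All 3 samples were biological replicates of 1 group, a transgenic fly line with a stable C-terminal GFP fusion of CG12391, from which sonicated chromatin of 200 to 800 bp was precipitated with anti-GFP antibody. The labels gave no promoter or driver for the fusion protein, and whole embryos mix all cell types and stages. They named no heat treatment and no comparison arm. The division into constitutive and inducible genes was taken from general knowledge and is used here only as a label for the named groups. It could not be checked in these embryos, since RNA was not measured, and a peak here is no measure of a gene's activity.

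Heat shock proteins are chaperones that keep other proteins folded. The cognate members of the Hsp70, Hsp90 and Hsp60 families work in unstressed cells, and the small heat shock proteins, which carry an alpha-crystallin domain, hold unfolding proteins in solution. Hsf, the heat shock factor, is the transcription factor that binds as a trimer to heat shock elements, arrays of short inverted units, and switches on the inducible genes under stress. In flies the inducible promoters are also known for GAGA factor sites and for RNA polymerase that waits near the start site before induction.

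The sequences under the peaks are shown first, among them that of the strongest promoter peak of the set, at Hsp27. The promoter of Hsp23, which had no reproducible peak, is added. Each is 201 bases of the Release 6 genome (RefSeq, build dm6), printed 5′ to 3′ in the direction of the gene. The first 5 are centred on a peak summit, the base of highest signal within a peak. The Hsp27 window is chr3L:9383819-9384019 (+ strand), Hsp26 is chr3L:9377464-9377664 (− strand) and Hsc70-4 is chr3R:15242420-15242620 (+ strand). The Hsp60A window is chrX:11108249-11108449 (+ strand) and Hsp83 is chr3L:3194173-3194373 (+ strand). The Hsp23 window, chr3L:9381681-9381881 (+ strand), ends at the base before the transcription start site (TSS). Capitals mark matches, on either strand, to any of 8 motifs. Paired heat shock element units were searched as GAANNTTC and TTCNNGAA. Promoter motifs searched were TATCGATA for DREF and BEAF-32, GGTCACACT for M1BP and CATCNCTA, known as Motif 7. The letters GAGAG stood for the site of the GAGA factor. The TATA box, a core promoter element, was searched as TATAAA. A short BEAF-32 site, which is also contained in the longer one, was searched as CGATA.
Hsp27 upstream peak: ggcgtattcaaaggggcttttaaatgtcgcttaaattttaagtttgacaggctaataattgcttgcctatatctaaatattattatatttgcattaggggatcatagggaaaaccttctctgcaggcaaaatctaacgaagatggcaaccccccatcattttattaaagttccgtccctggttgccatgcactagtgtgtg
Hsp26 upstream peak: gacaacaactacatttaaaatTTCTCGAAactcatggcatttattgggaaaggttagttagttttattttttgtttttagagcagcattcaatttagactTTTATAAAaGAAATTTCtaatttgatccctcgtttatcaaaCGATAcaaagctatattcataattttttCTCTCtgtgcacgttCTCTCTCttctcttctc
Hsc70-4 upstream peak: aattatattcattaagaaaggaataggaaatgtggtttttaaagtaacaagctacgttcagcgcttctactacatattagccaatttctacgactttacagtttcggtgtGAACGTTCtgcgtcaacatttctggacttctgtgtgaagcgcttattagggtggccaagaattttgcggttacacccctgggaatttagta
Hsp60A upstream peak: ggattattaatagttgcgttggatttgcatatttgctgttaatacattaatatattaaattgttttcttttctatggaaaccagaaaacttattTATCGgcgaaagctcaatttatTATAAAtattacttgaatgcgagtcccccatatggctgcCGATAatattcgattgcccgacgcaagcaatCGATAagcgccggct
Hsp83 intron peak: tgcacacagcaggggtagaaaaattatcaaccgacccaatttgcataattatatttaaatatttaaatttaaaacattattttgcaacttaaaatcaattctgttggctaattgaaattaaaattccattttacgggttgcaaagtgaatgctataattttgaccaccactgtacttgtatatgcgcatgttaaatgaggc
Hsp23 upstream sequence: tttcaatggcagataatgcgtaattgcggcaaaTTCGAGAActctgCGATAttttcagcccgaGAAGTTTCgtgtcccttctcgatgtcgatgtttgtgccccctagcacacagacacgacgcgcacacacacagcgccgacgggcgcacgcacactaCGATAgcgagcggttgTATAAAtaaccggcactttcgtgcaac

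The Hsp27 window held none of the 8 motifs. The Hsp26 window held a TTCNNGAA match 79 to 72 bases before the summit, a GAANNTTC match 9 to 16 bases after it, and GAGAG copies from base 69 onwards. In the Hsc70-4 window the lone match was a GAANNTTC 10 to 17 bases after the summit. The Hsp23 sequence held 1 match to each heat shock element pair, a TATA box and 2 CGATA copies. It is not placed like the Hsp27 window, which is centred on a summit and ends at 9384019, before the TSS at 9384063. In a window that reached its TSS, described further below, Hsp27 also held TATAAA. A match describes letters and not a bound factor, and a window without a match lacks only those letters.

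All 10 genes had at least 1 reproducible peak in the gene or within 2 kb of it. Reproducible peaks are those of the deposited list of 8522 peaks thresholded by the irreproducible discovery rate (IDR), which is meant to keep peaks that rank alike in replicates. By the same rule 50.6% of all protein-coding genes had a peak. The count was 6 of 6 for Hsf and the cognates and 4 of 4 for the small heat shock genes. Within 500 bp of a TSS of the gene itself, called the promoter here, an IDR peak was found for 8 of 10 genes against 34.4% of all genes. Hsf and Hsp23 were without one, so the count was 5 of 6 in the constitutive class and 3 of 4 among the small heat shock genes. When each summit was given only to the gene with the nearest TSS, the same 8 genes kept a peak, against 32.2% of all genes. The 4 small heat shock genes lie within 12764 bp, and their windows share peaks, so they are not 4 independent loci. These are descriptions of chosen genes, and no test was made of the difference from other genes or between the classes.

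At the 2 promoters without an IDR peak, weaker peaks were listed. In the list of 30000 peaks called on the pooled replicates, 10 of 10 genes had a peak within 2 kb against 68.0% of all genes, and 10 of 10 had one in the promoter against 52.1%. The IDR list was made of pooled peaks, each of the 8522 being found in the pooled list with the same signal. To treat the replicates alike, the 8522 peaks of highest signal on the chromosome arms were taken as the top peaks of each. A top peak in every replicate lay within 2 kb of 9 of 10 genes, Hsf being the exception, against 43.0% of all genes. By replicate the number of genes with such a peak was 10, 9 and 9, a mean of 9.33 ± 0.577 (SD, n = 3), against 50.9% ± 1.14 of all genes. In the promoter the number was 8 in each replicate, against 34.4% ± 1.44 of all genes. The replicates therefore differed by at most 1 gene.

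Peak strength is the authors' signal value, whose scale is not known. Signal differs in range between lists, so replicates are compared by rank, where 1 is the strongest peak on the arms. Read depth is unknown, since each replicate list and the pooled list hold exactly 30000 peaks.

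**Figure D1:**
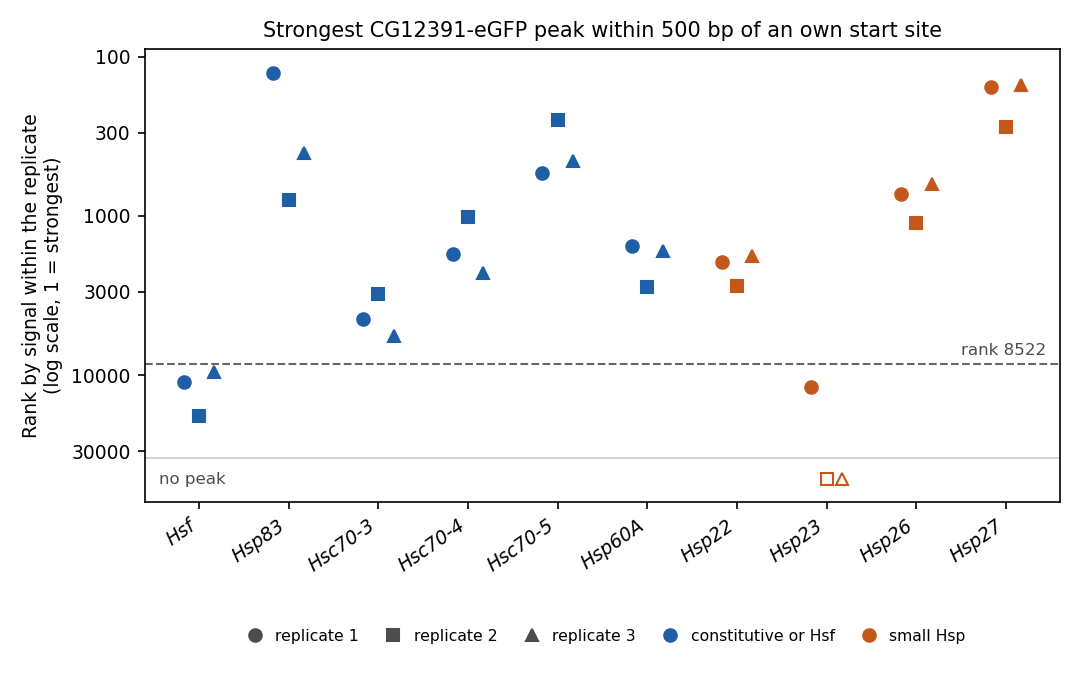
Rank by signal (vertical axis, logarithmic, 1 is strongest) of the strongest peak within 500 bp of a start site of each gene, with circles, squares and triangles for replicates 1, 2 and 3, blue for Hsf and the cognates and orange for the small heat shock genes. Hsp27 sits between 150 and 276 in all replicates, Hsf lies below the dashed line at rank 8522 in all of them, and open symbols show that Hsp23 had no promoter peak in replicates 2 and 3.

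Hsf, which encodes the heat shock factor itself, had no reproducible peak at its own promoter. The gene lies on arm 2R (18130303-18134634, minus strand). Its IDR peak, at 18135096-18135535, had its summit 682 bp upstream of the Hsf TSS and 110 bp from the TSS of Pcl, which encodes the Polycomb group protein Polycomblike. The TSSs of Hsf and Pcl are 792 bp apart. The peak had an IDR signal of 305 and ranked 6016, 8703 and 9149 in replicates 1, 2 and 3, so it was a top peak in replicate 1 only. At the Hsf promoter a weaker peak in the 5′ UTR, 96 bp downstream of the TSS, was present in the pooled list with a signal of 136 and rank 12976. A peak overlapping it was listed in every replicate, with signals of 42.7, 51.8 and 53.1 and ranks of 11090, 17952 and 9563. Its summit lay 127 and 113 bp downstream of the TSS in replicates 1 and 3. In replicate 2 the summit was 67 bp upstream of the TSS, 163 bp from the pooled summit. The overlapping peak was a top peak in no replicate.

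Hsp83, the fly Hsp90, carried a pair of peaks of nearly the same strength, 1165 bp apart. The gene (arm 3L, 3192969-3197059, plus strand) has 2 annotated TSSs. The promoter peak, at 3192827-3193305, had its summit 108 bp upstream of the inner TSS, inside the 5′ UTR of the longer transcript. Its signals in replicates 1 to 3 were 575, 813 and 462, with ranks 126, 800 and 403. The other peak, at 3194088-3194454, lay in an intron, 1057 bp downstream of the nearest TSS, and its window is printed above. Its signal was 426, 905 and 561 in replicates 1 to 3, with ranks 237, 649 and 262. The promoter was the stronger site in replicate 1 and the intron in replicates 2 and 3. The log2 ratio of intron to promoter signal was −0.43, 0.16 and 0.28, a mean of 0.00333 ± 0.38 (SD, n = 3), so no difference between the sites was detectable above the spread of the replicates. One more peak within 2 kb, with an IDR signal of 343, lay past the end of the gene and 34 bp from the TSS of CG14966.

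Hsc70-5, the mitochondrial Hsp70, had the strongest promoter peak of the constitutive class. The peak (arm 2R, 14255962-14256553) had an IDR signal of 2169 and rank 293, and its summit was 43 bp upstream of the TSS of the gene (14252598-14256192, minus strand). Signals were 299 in replicate 1, 1387 in replicate 2 and 438 in replicate 3, and the ranks were 536, 251 and 452. The first TSS of the neighbouring gene CG8531 is 301 bp away, and replicates 2 and 3 each had a further summit 54 and 58 bp from it, ranked 2047 and 5267. With such a distance and fragments of 200 to 800 bp, signal from the Hsc70-5 and CG8531 promoters cannot be fully told apart.

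Hsc70-4, the main cytosolic Hsp70 cognate, which also strips clathrin from vesicles, had a promoter peak with an IDR signal of 1070 and rank 1239. The peak (arm 3R, 15242250-15242721) was centred 167 bp upstream of the first TSS of the gene (15242687-15246614, plus strand), and the TSS of tefu, the fly ATM kinase gene, is 451 bp from that TSS. Signals were 161, 717 and 175 in replicates 1, 2 and 3, with ranks 1737, 1015 and 2280. It ranked best in replicate 2. The other 5 pooled summits of its window were far weaker, with ranks from 15694 to 29323.

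Hsp60A, the mitochondrial chaperonin, had 2 IDR peaks. The peak at the upstream edge of the gene (arm X, gene 11108482-11112308, plus strand; peak 11108141-11108482) was centred 133 bp upstream of the TSS, with an IDR signal of 742. It had signals of 171, 361 and 214 in replicates 1 to 3 and ranks of 1536, 2792 and 1671. An intron peak 545 bp upstream of the inner TSS was weaker, with an IDR signal of 302 and ranks of 7319, 7195 and 8922. The upstream site was stronger than the intron site in every replicate.

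Hsc70-3, the Hsp70 of the endoplasmic reticulum known as BiP in mammals, had the weakest promoter peak among the 8 genes with one, and the one that varied most in place. The gene (arm X, 11801696-11807117, minus strand) has 4 annotated TSSs. The stronger IDR peak was centred 201 bp upstream of the outermost TSS, with an IDR signal of 480. Its signals were 43.9, 336 and 87.4 in replicates 1, 2 and 3, and its ranks 10729, 3085 and 5626, so it was no top peak in replicate 1. There the strongest Hsc70-3 peak lay 125 bp upstream of an inner TSS, with a signal of 90.2 and rank 4404, a site that ranked 13989 in replicate 2 and 13365 in replicate 3. A further IDR peak 413 bp upstream, with a signal of 232, was just inside the list, whose lowest signal is 227. It ranked 16070, 14622 and 15663 and was a top peak in no replicate. Hsc70-3 also had 10 pooled summits in its window, a number reached by 5.33% of all genes, with no adjustment for gene length.

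The 4 inducible small heat shock genes lie in 1 cluster on arm 3L, with CG4461 between Hsp22 and Hsp26 and Hsp67Ba between Hsp26 and Hsp23. The promoter peaks of Hsp27, Hsp26 and Hsp22 formed a graded series, and Hsp23 had no reproducible promoter peak. Hsp27, whose product is found in the nucleus, had the strongest promoter peak of all 10 genes, with an IDR signal of 2555 and rank 204. The peak (9383700-9384114; gene 9384063-9385694, plus strand) was centred 144 bp upstream of the TSS. Its signals in replicates 1, 2 and 3 were 526, 1306 and 739.9, and its ranks were 156, 276 and 150. No other peak of any list fell within 2 kb of Hsp27.

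Hsp26, a cytosolic small heat shock protein, followed with an IDR signal of 1312 and rank 853. Its peak (9377385-9377741; gene 9376418-9377427, minus strand) was centred 137 bp upstream of the nearest TSS. Signals were 256, 676 and 371 in replicates 1 to 3, with ranks 733, 1104 and 635. Hsp22, a small heat shock protein of the mitochondrial matrix, had an IDR signal of 707 and rank 2305. Its signals were 152, 368 and 206, and its ranks 1934, 2737 and 1773. In each replicate Hsp27 ranked above Hsp26 and Hsp26 above Hsp22, and the ranges of ranks of the 3 genes did not overlap.

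The place of the Hsp22 peak differed from the others. The gene (9372931-9374964, plus strand) has 2 annotated TSSs, of which the outer one lies inside CG4456 (9372722-9374964), the heat shock gene known as Hsp67Bb, which ends at the same base as Hsp22. The summit, at 9373508, lay 489 bp upstream of the inner TSS, in the 5′ UTR of the longer Hsp22 transcript and the 3′ UTR of CG4456. It counts as a promoter peak only through the inner TSS. An IDR peak 1833 bp upstream of Hsp22 lay 40 bp from the TSS of Fdx1, which encodes a mitochondrial ferredoxin, and had a signal of 596 with ranks 2131, 3168 and 3412.

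Hsp23, another cytosolic small heat shock protein, stood apart within the cluster. The only IDR peak within 2 kb of the gene (9381882-9382765, plus strand) was the Hsp27 promoter peak, 2037 bp downstream of the Hsp23 TSS. At its own TSS the pooled list held a peak with its summit 10 bp downstream, in the 5′ UTR, with a signal of 69.8 and rank 22077. In replicate 1 this peak had a signal of 40.5 and rank 11833, and replicates 2 and 3 had no overlapping peak among their 30000. Its absence there says only that no peak reached those lists. A further pooled peak, 734 bp upstream of the Hsp23 TSS, was slightly stronger, with a signal of 74.2 and rank 20974. Replicates 1 and 2 listed peaks 619 and 504 bp upstream, ranked 17231 and 23675, the latter just outside the promoter distance of 500 bp. Replicate 3 listed no peak within 2 kb whose nearest TSS was that of Hsp23. The sequence upstream of the Hsp23 TSS, printed above, held the letters of both heat shock element pairs and of a TATA box. Whether such letters bear on the presence of a peak was not tested.

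**Figure D2:**
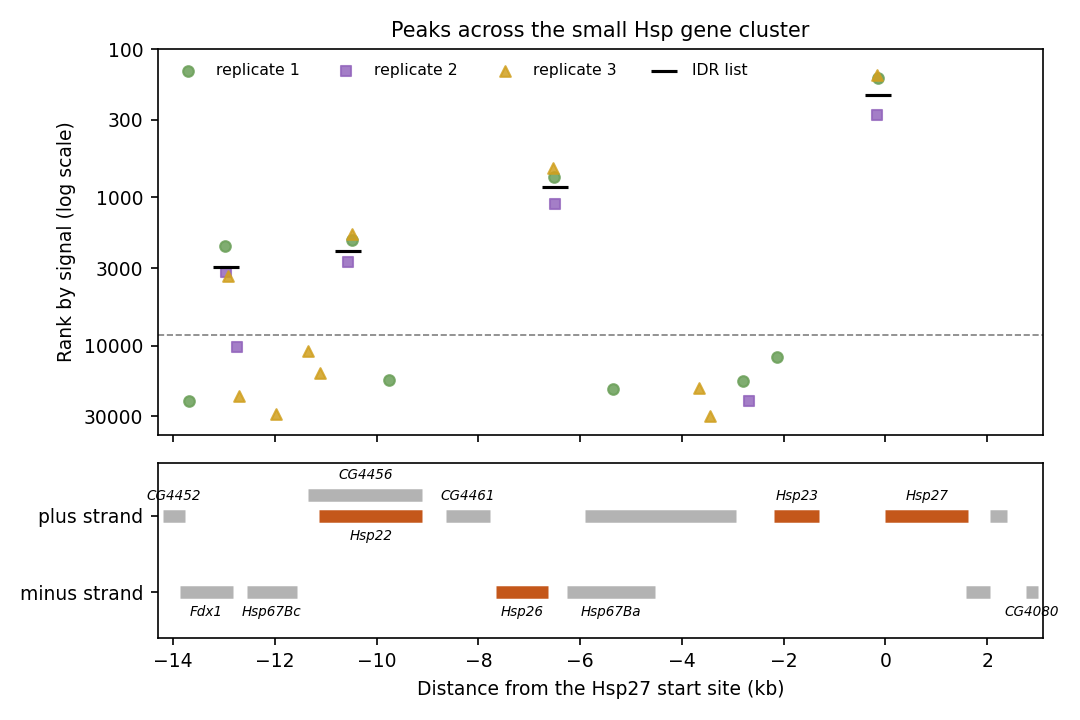
Upper panel, rank by signal (logarithmic axis, 1 is strongest) of every replicate peak, with IDR peaks as black bars, against distance from the Hsp27 start site in kb; the dashed line is rank 8522. Lower panel, genes on each strand, with the 4 small heat shock genes in orange: the IDR peaks near Hsp22, Hsp26 and Hsp27 have ranks 2305, 853 and 204, and the peaks near Hsp23 stay below the line.

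Ordered by IDR signal, the 8 genes with a promoter peak were Hsp27, Hsc70-5, Hsp83, Hsp26, Hsc70-4, Hsp60A, Hsp22 and Hsc70-3, so both classes were spread through the order. The replicate ranks of neighbours in this order overlapped for every pair except the last, Hsp22 with 1773 to 2737 and the Hsc70-3 promoter peak with 3085 to 10729. Ranks separated Hsp27 from Hsp26 and Hsp26 from Hsp22, but not Hsp27 from Hsc70-5 or Hsp22 from Hsp60A. Promoter ranks of the 3 small heat shock genes, 150 to 2737, lay within those of the 5 constitutive genes, 126 to 10729, of which the weakest were those of Hsc70-3.

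Set against the genome, promoter signals of the 8 genes ran from the upper tail to below the middle. A signal at least as high as that of Hsp27 was reached by 4.14% of the 4801 genes with a promoter IDR peak, or 1.42% of all protein-coding genes. For Hsc70-5 the share of genes with a promoter peak was 5.83%, for Hsp83 it was 8.37% and for Hsp26 it was 16.4%. The shares were 23.1% for Hsc70-4, 37.2% for Hsp60A, 38.8% for Hsp22 and 59.0% for Hsc70-3. The median signal of the 4801 genes was 562, and 7 of the 8 genes lay above it. No gene of the set reached the strongest 1%, which began at 4209.

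**Figure D3:**
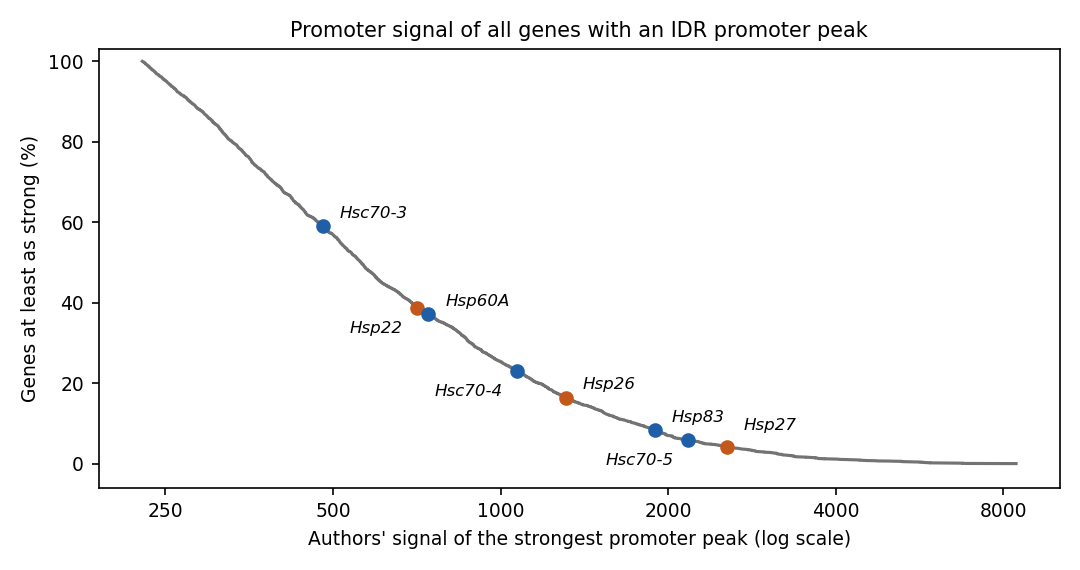
Share of the 4801 genes with a promoter IDR peak whose strongest promoter signal is at least as high (vertical axis, percent) against that signal (horizontal axis, logarithmic, the authors' units). Points mark constitutive genes in blue and small heat shock genes in orange, from 59.0% at Hsc70-3 to 4.14% at Hsp27.

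The 3 replicates did not order the genes alike. Hsc70-3, Hsc70-4 and Hsc70-5 had their best promoter rank in replicate 2, whereas Hsp22, Hsp26, Hsp27, Hsp60A and Hsp83 had their worst rank there. This split was chosen after the values were seen. Among 4655 genes with a promoter IDR peak and a promoter peak in every replicate, 40.7% had their best rank in replicate 2 and 39.3% their worst. A rank at either extreme in replicate 2 was thus common throughout the genome. The largest spread of a tracked promoter peak was at Hsp83, where the weakest rank was 6.35 times the strongest, followed by Hsc70-3 at 3.48 times. The Hsp22, Hsp26, Hsp27, Hsp60A, Hsc70-4 and Hsc70-5 promoter peaks stayed between 1.54 and 2.25 times.

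Replicate peaks that overlapped an IDR peak had summits close to its summit. Over the 14 distinct IDR peaks at the 10 genes, matched replicate summits lay a median of 13 bp and at most 102 bp from the IDR summit. Matching by overlap and nearest summit itself limits these distances, and the IDR summits come from the pooled replicates. The 9 IDR summits in promoters all lay upstream of the nearest TSS of the gene, and 84.8% of the 4000 IDR summits in promoters genome-wide did so. Distances upstream ran from 43 bp at Hsc70-5 to 489 bp at Hsp22, and the strongest promoter summits of Hsp83, Hsc70-4, Hsp60A, Hsp26 and Hsp27 fell between 108 and 167 bp. The genome-wide median was 120 bp, with quartiles at 65 and 201 bp. Inside the genes, IDR summits were found at Hsp83, Hsp60A and Hsp22.

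**Figure D4:**
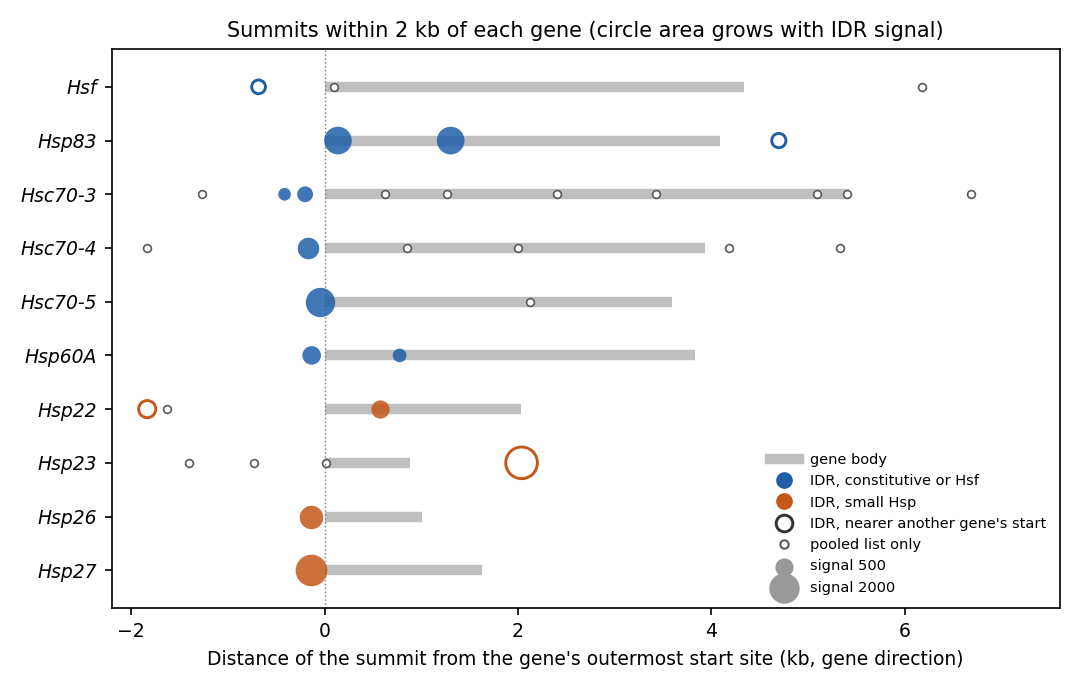
Distance of each summit from the outermost start site of its gene, in kb along the gene direction, with gene bodies in grey. Filled circles are IDR peaks (area grows with signal), large open circles are IDR peaks nearer another gene's start site, such as those of Pcl near Hsf and Hsp27 near Hsp23, and small open circles are peaks of the pooled list only.

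The letters of heat shock elements were present at both classes. Of the 14 IDR summits, 10 were scanned. Those at Pcl, CG14966 and Fdx1, which are nearer to another gene, and that of Hsc70-5 were not scanned, nor were the promoters of Hsf and Hsc70-5. Around the 10 summits, GAANNTTC occurred at 3, those of the Hsp83 promoter, Hsc70-4 and Hsp26, and in 5.84% of all 8522 IDR windows of the same length. TTCNNGAA occurred at 1 of the 10, that of Hsp26, and in 5.35% of all windows. GAGAG was found at 2 of 10 against 18.6%, TATAAA at 5 against 41.0%, CGATA at 3 against 29.6% and CATCNCTA at 1 against 3.91%. TATCGATA and GGTCACACT were found at none, against 4.95% and 2.59%. The summit windows of the strongest peak, at Hsp27, and of the intron peak of Hsp83 held none of the 8 motifs.

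The 8 promoters scanned have 20 TSSs and so 20 windows from 250 bases before to 50 bases from the TSS, of which 6 belong to the 4 small heat shock genes and 14 to Hsp83, Hsc70-3, Hsc70-4 and Hsp60A. Windows of neighbouring TSSs overlap and share matches. GAANNTTC was found in 9 of the 20, against 9.34% of 19630 such windows genome-wide, with 4 of 6 small heat shock windows and 5 of 14 constitutive windows. TTCNNGAA was found in 7 of 20, against 7.61%, with 3 of 6 and 4 of 14. Counted by gene, the classes were equal for both pairs. GAANNTTC was found at 3 of 4 small heat shock genes and 3 of 4 constitutive genes scanned, and TTCNNGAA at 2 of 4 of each. GAGAG was found in 11 of 20 against 33.1% and TATAAA in 15 of 20 against 42.2%. CGATA, in 10 of 20, was near its share of all windows, 45.7%. TATCGATA was found in 1 window, at Hsp83, against 7.98%, and GGTCACACT and CATCNCTA were in none, against 5.22% and 5.71%. No test was made of these shares. The Hsp27 promoter window held TATAAA and none of the other 7 motifs, so no paired heat shock element was found in either Hsp27 window. These windows overlap, and neither covers the whole peak, which begins at 9383700, upstream of both. The part of the peak outside them was not searched. Base composition also differed between the sites. Against a median A+T content of 67.2% for all IDR windows, the Hsp83 promoter window held 54.2% and the Hsp83 intron window 69.7%. The Hsp27 and Hsc70-4 windows each held 61.2%, the Hsp60A windows 64.7% and 57.7%, the Hsp26 window 70.1% and the Hsp22 window 72.6%. The Hsp23 upstream sequence, placed by the TSS and not by a summit, was 47.8% A+T, and 98.8% of IDR windows were at least as rich in A+T. For the Hsp83 promoter window the share was 94.2%. Whether base composition bears on peak strength was not tested.

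Of 34 further heat shock and chaperone genes, 19 (55.9%) had an IDR peak within 2 kb, against 50.6% of all protein-coding genes, and 11 (32.4%) had one in the promoter, against 34.4%. The list as a whole was thus near the share of all genes, and the counts by family that follow are small and were not tested. None of the 7 inducible Hsp70 genes had a promoter peak, and 1, Hsp68, had an IDR peak within 2 kb. The Hsp70A and Hsp70B copies are nearly identical, and the handling of reads shared by copies is unknown, so the counts for those copies are uncertain. Hsp68 lies apart from them, on arm 3R at 24055080-24057310. Among 8 genes listed as other small heat shock or alpha-crystallin genes, CG4456 included, none had a promoter peak. An IDR peak within 2 kb was found for 5, of which 4 lie beside the members in the cluster. The peaks counted for these 4 were those near Fdx1, Hsp22 and Hsp26 already described, and not further peaks. None of 3 further Hsp60 genes had any pooled peak within 2 kb. Hsp110, an exchange factor for Hsp70, was the only one of 3 further Hsp70 family genes with a promoter peak, at a signal of 333.

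Promoter peaks were found for 7 of 10 co-chaperone genes and for 2 of 2 organelle Hsp90 genes, against 34.4% of all protein-coding genes. The organelle genes were Gp93, the Hsp90 of the endoplasmic reticulum, with a signal of 671, and the mitochondrial Trap1 with 344, whose summit was nearer to the TSS of Bap170. Among the co-chaperones, CG11267, the mitochondrial Hsp10 partner of Hsp60, had a signal of 734 and Droj2, of the DnaJ family, 674. Stip1, which links Hsp70 to Hsp90, had 584. The BAG-domain gene stv had 418 and the Hsp90 co-chaperone genes Cdc37 and p23 had 404 and 326. Roe1, the mitochondrial GrpE exchange factor, had 246. The heat-inducible noncoding RNA gene lncRNA:Hsromega had the highest promoter signal of the 34, 1409 at rank 746, with its summit 172 bp from its TSS. Every other promoter signal of the list was below that of Hsp60A, and that of Hsromega was above Hsp26.

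The genes whose promoter ranks were most like those of Hsp27, by the sum of absolute log2 rank differences over the 3 replicates among 6181 genes, were orb and Cdc16, which share a peak, and Alg3. The orb and Cdc16 peak ranked 158, 263 and 158, a summed difference of 0.16, and the Alg3 peak ranked 174, 280 and 160, a summed difference of 0.27. The measure says only that their peaks had like strength.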

How the data were processed

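The authors deposited 5 peak lists on build dm6: 1 per replicate, 1 called on the 3 pooled replicates, and 1 thresholded by IDR from the other 4. Per the deposited file lists, peaks were called from alignments against 1 control shared by the replicates. Software, versions and settings of alignment, peak calling and IDR are, in the sources used here, not stated. For each peak, the authors' signal value (deposited, scale not stated) was used to rank peaks within a list, and the deposited summit offset to place summits. Ranks count peaks on the chromosome arms, which leaves out 22 peaks of replicate 1. No column of per-sample values was left unmapped.

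Genes and TSSs came from Ensembl release 115. A summit was given to every gene whose body extended by 2 kb held it, and to a promoter within 500 bp of any TSS of the gene. Replicate peaks were matched to an IDR peak by overlap of at least 1 bp and the nearest summit. Motifs were counted on both strands, overlapping matches included, in windows reaching 100 bp to either side of a summit and in promoter windows. Python 3.11.15, pandas 2.3.3 and numpy 2.4.6 were used, and the gene assignment and motif search were tested on simulated data. With 1 group there was no test between groups. Over 3 pairs an exact permutation test could not go below 0.25, so none was run.

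The named genes were the 10 members, the gene with the nearest TSS to each member summit, further chaperone genes with a promoter IDR peak, and the 3 genes most like the member with the strongest promoter peak. The members and gene lists were chosen with earlier results of these data known. Of the 34 further genes all were matched, 2 of them by a RefSeq synonym. The sequence under the Hsc70-3 peaks is not reported here.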

Additional observations from a re-analysis of the deposited data

How the results depend on the processing

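Counts of genes depended mainly on where a summit had to lie. With summits in the gene body only, 3 of the 10 genes kept an IDR peak, 2 constitutive and 1 small heat shock gene, against 16.3% of all genes. A top peak in every replicate was then found for 2 genes, a count for which the share of all genes is not given. The strongest Hsp60A signal was then 302. With each summit given to the nearest TSS, the share of all genes was 32.2%. With a promoter of 100 bp to either side of the TSS, Hsc70-5 was the 1 gene left. The share of all genes at that distance is not given, so this drop cannot be set against the genome. The median distance of promoter IDR summits genome-wide was 120 bp. With 1 TSS per gene from RefSeq, Hsp22 lost its promoter peak. In a further setting IDR peaks had to overlap top peaks of the remaining replicates, with replicates 1, 2 or 3 left out in turn. This left 8 to 9 genes within 2 kb, against 44.4%, 44.4% and 42.7% of all genes. It left 7 to 8 genes with a promoter peak, for which no such share is given. Hsf lost its peak within 2 kb each time, and Hsc70-3 lost its peak without replicate 2 and without replicate 3. The 4 small heat shock genes remained in each of these. Under these and the other alternatives, 47 values of the counts stayed within 1.5 times and 7 moved. Ranks over all sequences, the mitochondrial genome included, shifted by at most 22. No paired analysis was possible because there is only 1 group. The lowest signals listed were 18.8, 27.1 and 16.5 in replicates 1, 2 and 3. Depth and the rule that ended each list at 30000 peaks are unknown, so peaks absent from a list are not bounded beyond these values.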
